A study of Rattus norvegicus with 4 samples.

Results

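The respiratory chain and ATP synthase genes described here are the nuclear-encoded genes of complexes I to V and cytochrome c. They were chosen by symbol alone: names that begin with Nduf and a letter a, b, c, s or v before a digit, with Uqcr, with Cox4 to Cox8 or with Atp5, and the 6 names Sdha, Sdhb, Sdhc, Sdhd, Cyc1 and Cycs. The rule found 82 of the 17147 gene names in the table, 35 by their Nduf names, 4 of complex II, 9 of complex III, 16 by their Cox names, 17 by their Atp5 names, and cytochrome c. RNA was sequenced from neonatal rat ventricular myocytes, which are primary heart muscle cells of newborn rats, here from the left ventricle, cultured in DMEM with nutridoma and without serum. The 2 control libraries came from cells given the solvent DMSO (vehicle) and the 2 treated libraries from cells given 3 µM TMP195, an inhibitor of class IIa histone deacetylases, both for 48 h. Whether the libraries of a group are separate cultures is not in the labels. The p-values therefore rest on spread between libraries, pooled largely over genes, and that spread may be technical.

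The respiratory chain sits in the inner mitochondrial membrane. Complex I takes electrons from NADH and complex II from succinate, both pass them to ubiquinone, complex III hands them to cytochrome c, and complex IV gives them to oxygen. Complexes I, III and IV pump protons, and complex V, the ATP synthase, lets them flow back through its turning c ring to make ATP. Heart muscle depends on this pathway for most of its ATP and carries muscle isoforms of some complex IV subunits. A few subunits are made from the mitochondrial genome; these are not analysed here, so every value below is the RNA of a nuclear gene.

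A value in the main table is a fragment estimate that the authors scaled with 1 factor per library. Divided by its factor, the libraries held 11768467 to 14232156 fragments. Each of the 10 cardiomyocyte markers was detected in every library, with summed values of 417980 to 419800 with vehicle and 385620 to 395280 with TMP195, and 2 of them rose and 3 fell. Over all genes 9.93% rose and 10.3% fell. Among markers of other cells 7 of 10 for fibroblasts, 4 of 7 for smooth muscle and pericytes, 2 of 8 for endothelium and all 7 for dividing cells fell. Their summed values went from between 93085 and 96569 with vehicle to between 68455 and 71314 with TMP195 for fibroblasts, and from between 4855 and 5043 to between 2353 and 2452 for dividing cells. Col1a1 was the largest in the fibroblast sum, with means of 68209 with vehicle and 48641 with TMP195. Of the 3 fibroblast markers that did not pass, Postn had means of 6052 and 6593, Dcn 1223 and 1176 and Lum 197 and 143. The endothelial sum was 653 to 716 with vehicle and 379 to 381 with TMP195. Of 6 macrophage markers tested 0 passed in the limma fit, 0 with limma-voom and 0 at an unadjusted p under 0.05, with sums of 343 to 354 and 372 to 431 and C1qb near 0. No marker was at 0 in every library, and the endothelial Emcn was at 0 in TMP195 2. In bulk RNA, fewer cells of a type and less RNA per cell cannot be told apart, and the part of this shift in the values of the respiratory genes was not tested.

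A minority of the respiratory genes was higher with TMP195, by small amounts, and these genes lay in every complex. Of the 79 genes tested, 16 rose, by 1.15-fold to 1.63-fold, 1 fell and 62 did not pass. The 16 were Ndufa6, Ndufb3, Ndufv2, Ndufv1, Ndufb7, Ndufb9 and Ndufa10 of complex I, Sdhb of complex II, Uqcrc1, Uqcrb and Uqcrfs1 of complex III, cytochrome c itself (Cycs), Cox7a2l and Cox6a2 of complex IV, and Atp5h and Atp5s by their complex V names. Cox4i2, a complex IV isoform of low level, was the gene that fell. A gene counts as risen or fallen where the limma fit over all 12689 genes tested gave a Benjamini-Hochberg adjusted p under 0.05; the other 3 of the 82 genes, Atp5f1, Cox6c-ps1 and Cox8c, were listed at 0 in all 4 libraries and were not tested.

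The share that rose was close to that of other genes at similar levels. The 16 are 20.3% of the respiratory genes tested, where 9.93% of all genes rose, and the 1 that fell stands beside 10.3% of all genes. Most respiratory genes have high values, however, and among genes averaging 500 or more 19.6% rose, beside 20.3% (15 of 74) of the respiratory genes at that level. In the same limma fit 0 of the 74 fell, beside 687 of the 4523 genes at that level. Of these 74, 59 (79.7%) had a positive log2 fold change, beside 56.0% of all genes at that level, with medians of 0.11 and 0.04. Over all 79 it was positive for 63 (79.7%), beside 49.3% of all genes, and for 57 when values were scaled by library total. That scaling also moved the median of all genes from −0.01 to −0.03. Both TMP195 libraries lay above both vehicle libraries for 35 of the 79 genes, where 28.0% of all genes did so, and below for 5, where 28.7% did so. At an average of 500 or more the first share was 45.9% of the respiratory genes and 39.5% of all genes. These counts are a description, since the genes are related and were not tested as a set.

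With 1 library left out, 6 of the 16 genes rose in every fit over genes averaging 100 or more, and the other 10 in some of these fits. In the limma fit over all genes, no gene of the whole table passed without vehicle 1, vehicle 2 or TMP195 2, so those fits do not separate one gene from another. Without TMP195 1, some of the 16 rose and others did not pass. With genes averaging 100 or more alone, Ndufa6, Ndufb3, Sdhb, Uqcrc1, Cox7a2l and Cox6a2 rose whichever of the 4 libraries was left out. Of the others, Atp5h and Uqcrb did not pass without vehicle 1, Cycs and Ndufv2 without vehicle 2, and Atp5s without TMP195 1. Ndufa10 and Uqcrfs1 did not pass without vehicle 1 or TMP195 2, Ndufb7 without vehicle 2 or TMP195 2, and Ndufb9 and Ndufv1 passed only without TMP195 1. With 1 library left out the difference of the 16 ran from 1.09-fold for Ndufb9 to 1.83-fold for Atp5s. It could not turn, since both TMP195 libraries lay above both vehicle libraries for each of them.

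**Figure D1:**
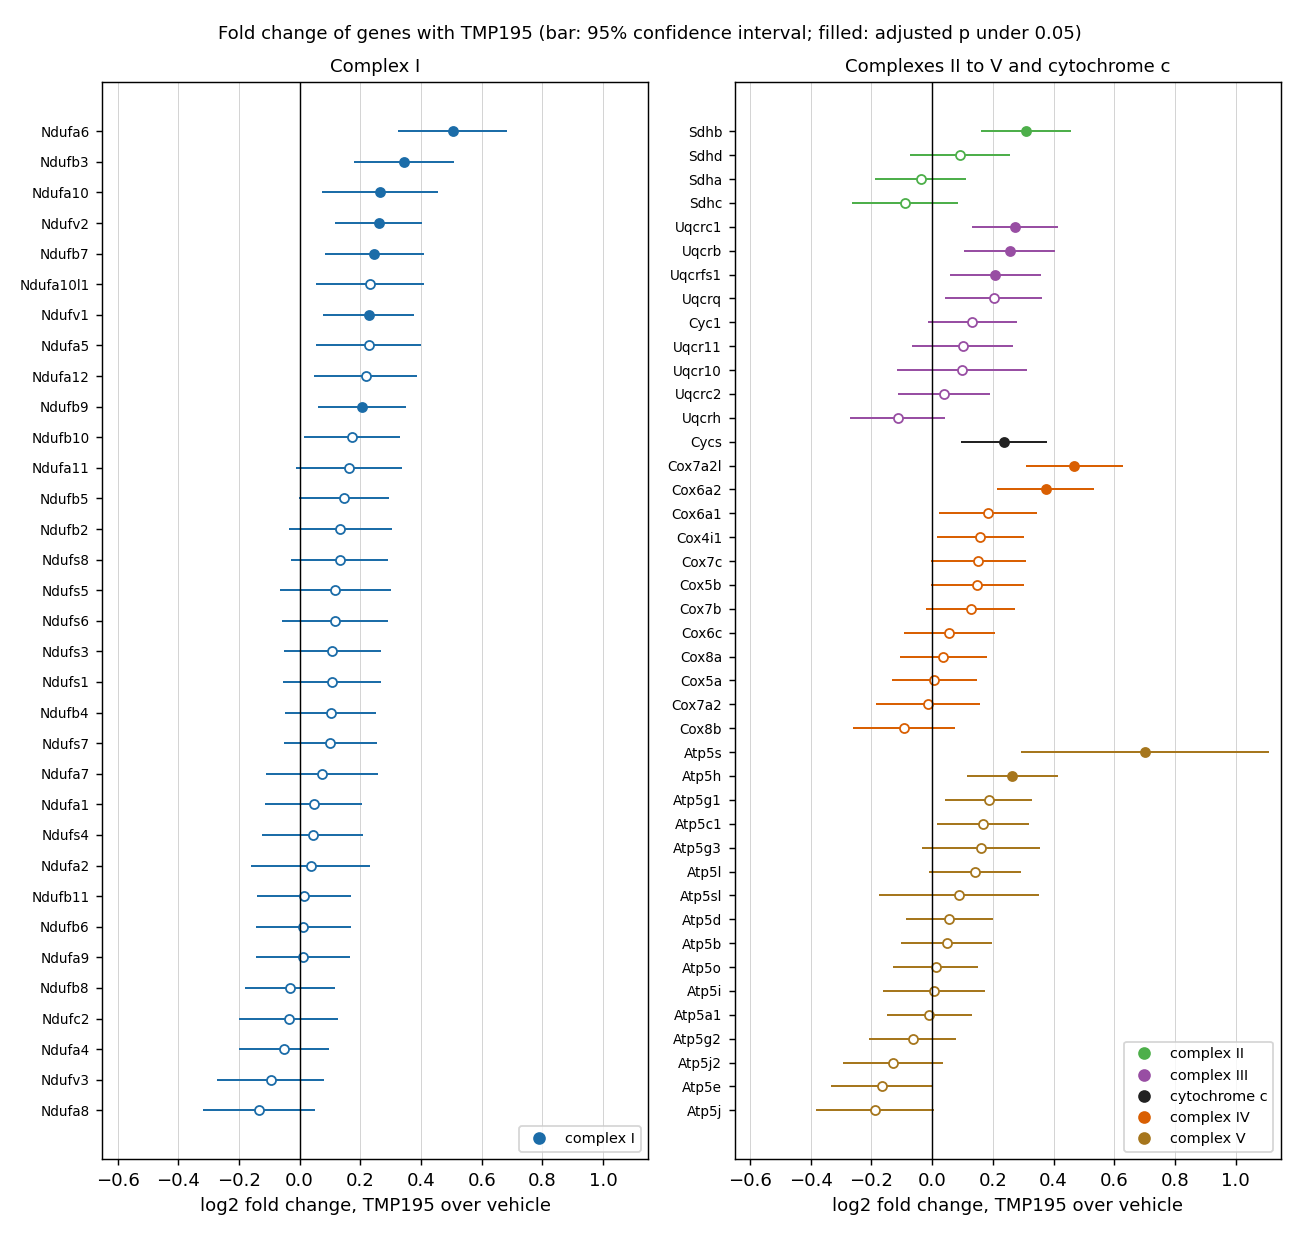
Log2 fold change of respiratory genes, TMP195 over vehicle (x axis), with its 95% confidence interval as a bar, by complex; filled points passed an adjusted p under 0.05. Most points lie right of 0 and most bars cross it; Cox4i2, Cox6b2 and Ndufa4l2, whose low values give wide intervals, and the 3 genes at 0 are left out, as is 1 other gene.

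The windows around the transcription start of 5 genes that rose are shown because they carry the letters of factors known to drive respiratory genes, and that of Cox6a2 because it rose without them. NRF1, GABP and the estrogen-related receptors bind such promoters in mammals. The windows run from 250 bases before to 50 after the start, from the RefSeq promoter table of assembly GRCr8, and are written 5′ to 3′ on the strand of the gene. Capitals mark GCGCATGC or its reverse complement (NRF1) in the first 4 and CCGGAAGT (GABP) in Ndufb7; Cox6a2, the heart and muscle isoform, holds none of the motifs searched.
Cycs: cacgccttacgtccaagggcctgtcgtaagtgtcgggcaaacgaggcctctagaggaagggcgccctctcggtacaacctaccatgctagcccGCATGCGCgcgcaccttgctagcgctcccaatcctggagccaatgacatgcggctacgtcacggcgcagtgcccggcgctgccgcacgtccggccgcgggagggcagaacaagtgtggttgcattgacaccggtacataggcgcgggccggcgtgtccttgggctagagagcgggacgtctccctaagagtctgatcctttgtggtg
Ndufa6: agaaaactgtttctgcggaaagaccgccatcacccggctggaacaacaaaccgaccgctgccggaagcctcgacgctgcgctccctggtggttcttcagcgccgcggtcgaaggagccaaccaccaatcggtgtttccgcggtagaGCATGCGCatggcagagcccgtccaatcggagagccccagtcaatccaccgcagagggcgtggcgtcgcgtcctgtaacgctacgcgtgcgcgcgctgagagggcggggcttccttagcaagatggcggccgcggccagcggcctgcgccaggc
Sdhb: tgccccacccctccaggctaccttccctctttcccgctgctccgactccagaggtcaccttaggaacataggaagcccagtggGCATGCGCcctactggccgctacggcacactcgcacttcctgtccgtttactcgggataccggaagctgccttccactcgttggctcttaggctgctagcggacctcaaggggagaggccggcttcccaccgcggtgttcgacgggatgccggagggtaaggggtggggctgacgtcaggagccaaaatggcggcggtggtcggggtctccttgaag
Uqcrc1: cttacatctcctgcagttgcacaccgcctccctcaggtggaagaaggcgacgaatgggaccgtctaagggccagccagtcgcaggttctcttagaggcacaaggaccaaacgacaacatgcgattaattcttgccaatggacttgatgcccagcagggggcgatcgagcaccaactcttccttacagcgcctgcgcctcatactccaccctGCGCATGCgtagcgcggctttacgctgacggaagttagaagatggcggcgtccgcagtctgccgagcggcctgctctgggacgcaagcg
Ndufb7: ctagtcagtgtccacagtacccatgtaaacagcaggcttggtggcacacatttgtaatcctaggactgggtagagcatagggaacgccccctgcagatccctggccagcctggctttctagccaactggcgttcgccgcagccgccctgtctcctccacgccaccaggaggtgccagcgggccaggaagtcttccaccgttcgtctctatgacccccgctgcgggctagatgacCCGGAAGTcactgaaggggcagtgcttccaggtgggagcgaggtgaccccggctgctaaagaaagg
Cox6a2: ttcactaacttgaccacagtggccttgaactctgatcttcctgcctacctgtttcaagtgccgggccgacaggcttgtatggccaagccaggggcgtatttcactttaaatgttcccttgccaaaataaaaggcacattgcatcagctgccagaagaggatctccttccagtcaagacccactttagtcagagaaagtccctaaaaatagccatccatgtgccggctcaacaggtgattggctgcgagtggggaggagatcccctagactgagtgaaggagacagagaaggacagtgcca
They lie at chr4:80984718-80985017, minus strand for Cycs, chr7:115750268-115750567, minus strand for Ndufa6, chr5:158547684-158547983, plus strand for Sdhb, chr8:118467973-118468272, plus strand for Uqcrc1, chr19:41477242-41477541, minus strand for Ndufb7 and chr1:192219667-192219966, minus strand for Cox6a2. The match began 157 bases before the start in Cycs, 104 in Ndufa6, 167 in Sdhb, 39 in Uqcrc1 and 16 in Ndufb7.

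A window was matched to 69 of the 82 genes, and both strands were searched for GCGCATGC, CCGGAAGT and TCAAGGTCA (estrogen-related receptors). NRF1 letters were in 10 of the 69 (14.5%), beside 4.69% of the 9848 windows of genes tested here and 2.47% of all 33469 windows. Besides the 4 shown they were in Atp5g2, Atp5i, Atp5l, Atp5o, Cox8c and Ndufa11, of which Cox8c was not tested. Windows of respiratory genes were also matched through older names, as for these Atp5 genes. The 9848 windows were matched by the listed symbol alone, so the sets were not matched alike. Because this motif is nearly its own reverse complement, matches on the 2 strands can overlap, and a window was counted once. GABP letters were in 7 (10.1%), beside 7.41% and 3.81%, and those of the estrogen-related receptors in 2 (2.9%), Atp5g3 and Sdhd, beside 0.193% and 0.433%. Of the 13 risen genes with a window, 4 held NRF1 letters, 1 GABP letters and 0 the third motif, and of the 54 tested genes with a window that did not rise, 5, 6 and 2 did. At least 1 of the motifs was in 5 of the 13 and in 13 of the 54, so most risen genes with a window held none. A match of letters is a description and shows no binding.

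The 7 core subunits of complex I that are encoded in the nucleus carry the flavin and the iron-sulfur clusters that lead electrons from NADH to ubiquinone. Of these 7, Ndufv2 and Ndufv1 rose, beside 19.6% of all genes averaging 500 or more. Ndufv2, which holds an iron-sulfur cluster next to the flavin, had values of 5131 and 4932 in vehicle 1 and 2 and 5978 and 6071 in TMP195 1 and 2. Its TMP195 libraries lay close together and above both vehicle libraries, and it was 1.20-fold higher (log2 0.26 ± 0.07 SE, adjusted p = 0.0061). Ndufv1, which binds NADH and the flavin, had values of 3396 and 3290.1 in vehicle 1 and 2 and 3824 and 4009 in TMP195 1 and 2. The groups did not overlap, and the difference was 1.17-fold (log2 0.23 ± 0.07 SE, adjusted p = 0.0214).

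Ndufs1, Ndufs3, Ndufs7 and Ndufs8 did not pass. Ndufs1, which holds several iron-sulfur clusters, overlapped between groups, with 3966 and 4497 with vehicle and 4860.5 and 4257 with TMP195. Ndufs7, at the ubiquinone site, had a log2 fold change of 0.10 (95% interval −0.05 to 0.25). Ndufs3 and Ndufs8, of the arm in the matrix, had 0.11 (−0.05 to 0.26) and 0.13 (−0.02 to 0.29). The intervals of Ndufs7, Ndufs3 and Ndufs8 began slightly below 0. Their upper ends lay above the log2 0.21 of Ndufb9, the smallest rise, and below the 0.34 of Ndufb3 and the 0.50 of Ndufa6.

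Accessory subunits surround this core and are needed to build the complex. Of 26, 5 rose, 22 had a positive fold change (19 with scaling by library total), and the other 21 did not pass. Of all genes averaging 500 or more, 19.6% rose and 56.0% had a positive fold change. Ndufa6, an accessory subunit that binds the mitochondrial acyl carrier protein, was the complex I gene with the largest difference. It had values of 1776 and 1622 in vehicle 1 and 2 and 2188 and 2650.0 in TMP195 1 and 2. Both TMP195 libraries were higher, TMP195 2 more so, and the difference was 1.42-fold (log2 0.50 ± 0.09 SE, adjusted p = 5.82e-05). It stayed between 1.29-fold and 1.56-fold whichever library was left out.

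Ndufb3, Ndufb7 and Ndufb9 belong to the membrane arm of the complex. Ndufb3 had values of 2074 and 2191 in vehicle 1 and 2 and 2539.7 and 2885 in TMP195 1 and 2. It did not overlap between groups and was 1.27-fold higher (log2 0.34 ± 0.08 SE, adjusted p = 0.00172). Ndufb7 had values of 2703 and 2562 in vehicle 1 and 2 and 2921 and 3339 in TMP195 1 and 2. TMP195 1 lay nearer to the vehicle libraries than TMP195 2, and the difference of 1.19-fold (log2 0.25 ± 0.08 SE, adjusted p = 0.0218) did not pass without the filter on low values, where its adjusted p was 0.0697.

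Ndufb9, which binds acyl carrier protein as Ndufa6 does and has the highest length-corrected level in complex I, had values of 8620.4 and 8544 in vehicle 1 and 2 and 9348 and 10475 in TMP195 1 and 2. The vehicle libraries nearly coincided and both TMP195 libraries were higher, by 1.15-fold (log2 0.21 ± 0.07 SE, adjusted p = 0.0356). Ndufa10 had values of 1052 and 1255 in vehicle 1 and 2 and 1331 and 1432 in TMP195 1 and 2, and its TMP195 libraries were higher by 1.20-fold (log2 0.26 ± 0.09 SE, adjusted p = 0.0389). Both calls were lost with a pseudocount of 0.1, with no filter on low values and with scaling by library total, with an adjusted p of up to 0.0917 for Ndufb9 and 0.105 for Ndufa10. Ndufa10 has a close copy in the table, Ndufa10l1, at 1678 and 1874 with vehicle and 2258 and 1924 with TMP195 (adjusted p = 0.0526), and how the counting shared reads between them was not stated in the sources used.

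Ndufa5, of the matrix arm, lay nearest to the threshold without passing (adjusted p = 0.0503), with 3792 and 3862 with vehicle and 3980.0 and 5045 with TMP195; TMP195 1 was close to the vehicle libraries. Ndufa12, Ndufb10 and Ndufb5 had log2 fold changes of 0.22, 0.17 and 0.15 with adjusted p of 0.058, 0.116 and 0.156. At the other end, Ndufa8 was the accessory gene with both TMP195 libraries below both vehicle libraries, at 1130.3 and 1089 with vehicle and 1022 and 999 with TMP195 (log2 −0.13, 95% interval −0.32 to 0.05). Ndufv3, Ndufc2 and Ndufb8 had log2 fold changes of −0.10, −0.04 and −0.03, and Ndufa9, Ndufb6 and Ndufb11 lay at 0.01, 0.01 and 0.01.

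Per length, complex I genes covered a wide range. The authors' deposited FPKM, averaged over the 4 libraries, ran from 50.6 for Ndufa10 to 1514 for Ndufb9, with a median of 386. Ndufb9 ranged from 1399 to 1716 FPKM over the libraries and stood next to Ndufb4 at a mean of 1339.6 and Ndufa11, a membrane subunit, at 1045. Ndufb4 ranged from 1270.5 to 1454 FPKM, so the ranges of Ndufb9 and Ndufb4 overlapped. Neither Ndufb4 (log2 0.10, 95% interval −0.04 to 0.25) nor Ndufa11 (0.16, −0.01 to 0.33) passed.

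**Figure D2:**
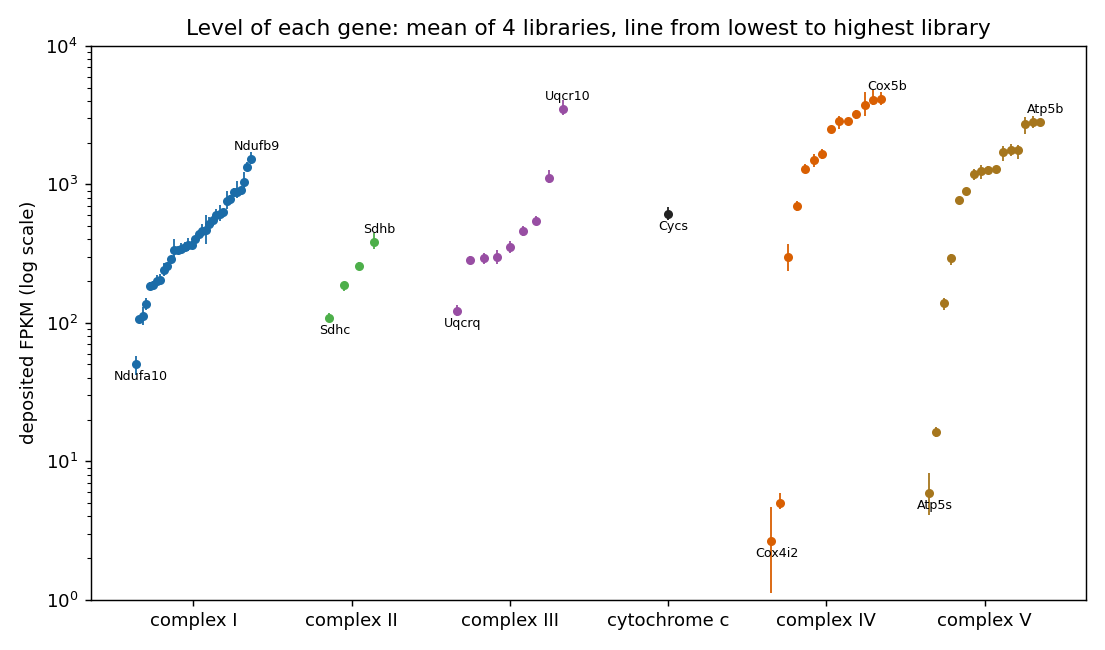
Deposited FPKM of each respiratory gene with a value (y axis, log scale), by complex (x axis); the point is the mean of the 4 libraries and the line runs from the lowest to the highest library. Cox5b of complex IV has the highest mean, Uqcr10 of complex III and Atp5b of complex V lead theirs, and Cox4i2 has the lowest.

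Complex II is the succinate dehydrogenase of the citric acid cycle and has 4 subunits. Its iron-sulfur subunit, Sdhb, rose, and the other 3 did not pass, where 19.6% of all genes averaging 500 or more rose. Sdhb had values of 3699 and 3725 in vehicle 1 and 2 and 4438 and 4765 in TMP195 1 and 2. The vehicle libraries nearly coincided and both TMP195 libraries were higher, by 1.24-fold (log2 0.31 ± 0.07 SE, adjusted p = 0.00177).

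Sdha, which holds the flavin and oxidises succinate, had 7083 and 8085 with vehicle and 7474 and 7271 with TMP195, with overlapping groups and a log2 fold change of −0.04 (95% interval −0.18 to 0.11). The membrane anchors differed in direction: Sdhc had 1564 and 1423 with vehicle and 1383 and 1422 with TMP195 and Sdhd 2416 and 2789.8 with vehicle and 2719.8 and 2816 with TMP195. Sdhc was lower in both TMP195 libraries, with TMP195 2 only just under vehicle 2 (log2 −0.09, adjusted p = 0.521), and Sdhd overlapped (log2 0.09, adjusted p = 0.465). By FPKM the order was Sdhb 386, Sdha 256, Sdhd 188 and Sdhc 109.

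In complex III, 3 of 9 genes rose and 8 of 9 had a positive fold change, beside 19.6% and 56.0% of all genes averaging 500 or more. The 3 were 1 of 2 core proteins, 1 of 2 catalytic subunits and 1 of 5 small subunits. Uqcrc1, a large core protein on the matrix side, had values of 5072 and 5091 in vehicle 1 and 2 and 6125 and 6151 in TMP195 1 and 2. Within each group the libraries differed little, and TMP195 was 1.21-fold higher (log2 0.27 ± 0.07 SE, adjusted p = 0.00389). Uqcrc2, the other core protein, did not pass, at 6309.6 and 6442 with vehicle and 6984 and 6146 with TMP195 (log2 0.04, 95% interval −0.11 to 0.19).

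Uqcrb, a small subunit near the ubiquinone site, had values of 3130.1 and 3295 in vehicle 1 and 2 and 3736 and 3932 in TMP195 1 and 2. The groups did not overlap, and the difference was 1.19-fold (log2 0.25 ± 0.07 SE, adjusted p = 0.0107). Uqcrfs1, the Rieske iron-sulfur protein that passes electrons from ubiquinol to cytochrome c1, had values of 3947 and 4248 in vehicle 1 and 2 and 4602 and 4864 in TMP195 1 and 2. Both TMP195 libraries were above both vehicle libraries. The difference of 1.16-fold (log2 0.21 ± 0.07 SE, adjusted p = 0.037) lay close to the threshold and was lost under 5 of 7 other settings, with an adjusted p of up to 0.0745.

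Cytochrome c1 (Cyc1), the haem subunit that hands electrons to cytochrome c, was higher in both TMP195 libraries without passing, at 5952 and 6354 with vehicle and 6472 and 7015 with TMP195 (adjusted p = 0.204). Uqcrq, a small subunit beside Uqcrb, was nearest to the threshold (log2 0.20, adjusted p = 0.059). Uqcrh, the hinge protein at the docking face for cytochrome c, was the complex III gene with both TMP195 libraries below vehicle, at 2855 and 2660.3 with vehicle and 2586 and 2512 with TMP195 (log2 −0.11, 95% interval −0.27 to 0.04). The small subunits Uqcr10 and Uqcr11 had the highest FPKM of the complex, 3482 and 1105, ahead of Uqcrh at 547, and each was highest in TMP195 2 and lowest in TMP195 1. The FPKM of Uqcr10 rests on an implied length of 0.043 of the median gene, so its place in that order is uncertain.

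Cytochrome c (Cycs), the soluble carrier between complexes III and IV that also triggers apoptosis when released, rose. It had values of 8098 and 7731 in vehicle 1 and 2 and 9093 and 9561 in TMP195 1 and 2. Both TMP195 libraries were higher, by 1.18-fold (log2 0.24 ± 0.07 SE, adjusted p = 0.0118). Cycs and several small subunits have processed copies in mammalian genomes, and whether their reads were counted with the genes was not stated in the sources used.

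**Figure D3:**
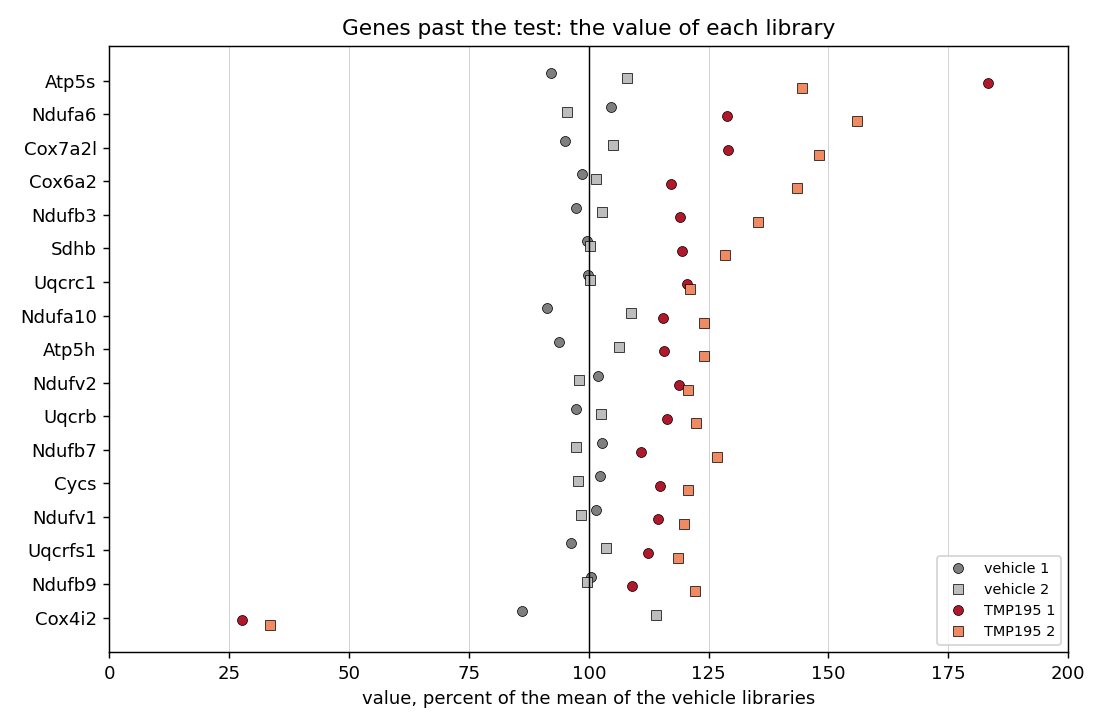
Value of each library as a percent of the mean of the vehicle libraries (x axis) for the 17 genes past the test; grey marks are vehicle and red and orange marks TMP195. For the 16 genes that rose both TMP195 libraries lie right of both vehicle libraries, and for Cox4i2 both lie left.

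In complex IV, cytochrome c oxidase, the genes past the test were 2 isoforms of restricted tissues and a supercomplex protein. Of its 9 common subunits 0 passed in the limma fit and 0 with limma-voom, with 2 higher at an unadjusted p under 0.05. The fold change was positive for 8 of the 9 (7 with scaling by library total), and the range was log2 −0.01 to 0.18. Among all genes averaging 500 or more, 19.6% rose and 56.0% had a positive fold change. Cox7a2l, a protein that joins complex III to complex IV in supercomplexes, had the smallest adjusted p of all respiratory genes. It had values of 3472 and 3839.8 in vehicle 1 and 2 and 4714 and 5409 in TMP195 1 and 2. The groups did not overlap, and TMP195 was 1.38-fold higher (log2 0.47 ± 0.08 SE, adjusted p = 3.18e-05). It stayed between 1.29-fold and 1.48-fold whichever library was left out.

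Cox6a2, the heart and skeletal muscle isoform of subunit 6a, rose as well. Its values were 11535 and 11869 in vehicle 1 and 2 and 13720.0 and 16775 in TMP195 1 and 2. TMP195 2 was well above TMP195 1, which was itself above both vehicle libraries, and the difference was 1.30-fold (log2 0.37 ± 0.08 SE, adjusted p = 5.17e-04). Without TMP195 2 it was 1.17-fold and without TMP195 1 it was 1.43-fold. Cox6a1, the isoform of most tissues, had 18032 and 19073 with vehicle and 19050.0 and 23264 with TMP195 and did not pass (log2 0.18, adjusted p = 0.0975), with TMP195 1 inside the vehicle range.

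Within a library the ratio of Cox6a2 to Cox6a1 sets the muscle isoform against the common one. Its log2 was −0.64 and −0.68 with vehicle and −0.47 and −0.47 with TMP195. The groups did not overlap, and the ratio was 0.19 higher on the log2 scale with TMP195 (exact permutation p = 0.333, two-sided). That is the smallest p that 2 libraries against 2 can give.

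Cox4i2 went the other way from a low level. It is the isoform of subunit 4 known from lung and from mural cells, where it takes part in oxygen sensing. It had values of 24.7 and 32.6 in vehicle 1 and 2 and 7.91 and 9.59 in TMP195 1 and 2, so it rested on few fragments. Both TMP195 libraries were below both vehicle libraries, and it was 3.02-fold lower (log2 −1.60 ± 0.50 SE, adjusted p = 0.0222). With 1 library left out its log2 fold change stayed between −1.79 and −1.40; it did not pass, in 3 of the 4 fits along with every other gene of the table. The smooth muscle and pericyte markers summed to between 16769 and 16970 with vehicle and to between 12120 and 12998 with TMP195. Rgs5 was at 0 in TMP195 2 and the others were above 0 in every library. Of the 7 markers 4 fell and 3 did not pass. Acta2, the largest, had a mean of 7949.5 with vehicle and 5392 with TMP195, whereas Pdgfrb had 2477.5 and 2590 (log2 0.06). The part of these cells in the fall of Cox4i2 was not tested. Cox4i1, the common isoform, had 8364 and 8476 with vehicle and 9015 and 9787 with TMP195, higher in both TMP195 libraries without passing (log2 0.16, adjusted p = 0.108). The log2 ratio of Cox4i2 to Cox4i1 was −8.41 and −8.02 with vehicle and −10.2 and −9.99 with TMP195 (exact permutation p = 0.333, again the smallest possible).

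The remaining isoform pairs did not separate. Cox8b, the heart isoform of subunit 8 in rodents, had 4579 and 5099 with vehicle and 4118 and 4989 with TMP195, and Cox8a, the common one, 10273 and 10042 with vehicle and 9986 and 10857 with TMP195. The log2 ratio of Cox8b to Cox8a was −1.17 and −0.98 with vehicle and −1.28 and −1.12 with TMP195, with overlapping groups (exact permutation p = 0.667). Cox6b2, an isoform of testis, was low at 17.1 and 19.0 with vehicle and 17.6 and 22.1 with TMP195 (log2 0.12, adjusted p = 0.897). Its partner Cox6b1 and the muscle isoform Cox7a1 are not analysed here. Ndufa4, named for complex I and placed in complex IV by later work, had 6208 and 6901 with vehicle and 6173 and 6451 with TMP195 (log2 −0.05, 95% interval −0.20 to 0.09). Its isoform Ndufa4l2 was near 0, at 5.69 and 1.05 with vehicle and 7.91 and 0.959 with TMP195, and the log2 ratio of Ndufa4l2 to Ndufa4 overlapped between groups (exact permutation p = 1).

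By FPKM the highest respiratory levels were in complex IV. Cox5b, which binds zinc beside the catalytic core, had a mean of 4147, Cox6a1 4091 and Cox6a2 3728, with ranges over the libraries that overlapped. The FPKM of Cox6a2 was not exactly proportional to its value in the main table. Cox5b had values of 14932 and 16245 in vehicle 1 and 2 and 16103 and 18521 in TMP195 1 and 2. Only TMP195 2 was above both vehicle libraries, and the gene did not pass (log2 0.15, adjusted p = 0.163). Cox5a was nearly level, at 15910.0 and 16164 with vehicle and 16389 and 15847 with TMP195 (log2 0.01, 95% interval −0.13 to 0.14). Cox6c, Cox7b, Cox7c and Cox7a2 had log2 fold changes of 0.06, 0.13, 0.15 and −0.01. Cox6c has a pseudogene in the table, Cox6c-ps1, which was listed at 0.

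In complex V, 0 of the 5 genes of the catalytic F1 head passed in the limma fit and 0 with limma-voom, with 1 higher and 1 lower at an unadjusted p under 0.05. In the limma fit 19.6% of all genes averaging 500 or more rose. Atp5b, the catalytic beta subunit, had values of 59157 and 62068 in vehicle 1 and 2 and 60861 and 64510.0 in TMP195 1 and 2, the largest in the main table among the respiratory genes. The groups overlapped, with a log2 fold change of 0.05 (95% interval −0.10 to 0.19), whose upper end lies below the log2 0.47 of Cox7a2l. Atp5a1, the alpha subunit, was at 20504 and 21178 with vehicle and 21032 and 20397 with TMP195 (log2 −0.01, 95% interval −0.15 to 0.13). Atp5c1, the gamma subunit that forms the turning shaft, was higher in both TMP195 libraries, at 13634 and 15678 with vehicle and 15901 and 16976 with TMP195 (adjusted p = 0.104). Atp5d and Atp5e, the small delta and epsilon subunits on that shaft, had log2 fold changes of 0.06 and −0.17.

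In the peripheral stalk, which holds the head still against the turning ring, 1 of 3 tested genes rose, beside 19.6% of all genes averaging 500 or more. Atp5h, its subunit d, had values of 7437 and 8434 in vehicle 1 and 2 and 9188 and 9849.9 in TMP195 1 and 2. The groups did not overlap, and the difference was 1.20-fold (log2 0.26 ± 0.07 SE, adjusted p = 0.00785). The other stalk genes did not pass: Atp5o, which caps the head, was at 9179 and 9060.4 with vehicle and 9044 and 9355 with TMP195, and Atp5j, coupling factor 6, was lower in both TMP195 libraries at 992 and 964 with vehicle and 822 and 897 with TMP195 (log2 −0.19, adjusted p = 0.168). Atp5f1, subunit b, was listed at 0 in all 4 libraries; a 0 in this table can be a failed estimate. The small membrane subunits Atp5i, Atp5j2 and Atp5l had log2 fold changes of 0.01, −0.13 and 0.14.

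The c ring is built from identical copies of a protein that Atp5g1, Atp5g2 and Atp5g3 all encode. Atp5g1 lay nearest to the threshold in complex V without passing, at 8429.8 and 8087 with vehicle and 9034 and 9766 with TMP195 (log2 0.19, adjusted p = 0.0543). As a share of the summed values of the 3 genes it made up 50.0% and 47.9% with vehicle and 52.3% and 53.3% with TMP195. Atp5g2 made up 44.5% and 47.1% with vehicle and 41.8% and 41.4% with TMP195. Neither share overlapped between groups (exact permutation p = 0.333 for each, the smallest possible), and the share of Atp5g3, at 5.01% to 5.94%, did. The 3 genes are alike in the part that encodes the mature protein, so reads could be split between them by the counting.

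Atp5s rose and Atp5sl did not pass, but neither is a subunit of the enzyme. RefSeq names them Dmac2l and Dmac2. Atp5s had values of 103 and 121 in vehicle 1 and 2 and 206 and 162 in TMP195 1 and 2. Both TMP195 libraries were higher, TMP195 1 most, and the difference was 1.63-fold (log2 0.70 ± 0.20 SE, adjusted p = 0.0107), the largest rise among the 79 genes and from the lowest FPKM in the complex V group, 5.89. Atp5sl was at 381 and 349.6 with vehicle and 366 and 411 with TMP195 (log2 0.09, adjusted p = 0.7). By FPKM the highest of the group were Atp5b at 2818, Atp5i at 2813 and Atp5h at 2722, whose ranges over the libraries overlapped.

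As a share of all fragments the respiratory genes made up 3.47% and 3.56% with vehicle and 3.59% and 3.85% with TMP195. Both TMP195 libraries were above, TMP195 1 by a narrow margin. The Nduf genes held 0.854% and 0.855% with vehicle and 0.887% and 0.947% with TMP195. Complex III went from 0.285% and 0.287% to 0.304% and 0.315%, and the Cox genes from 0.905% and 0.939% to 0.943% and 1.06%, neither with overlap. Complex II, at 0.121% and 0.129% against 0.128% and 0.130%, and the Atp5 genes, at 1.24% and 1.29% against 1.26% and 1.33%, overlapped. These differences depended on the measure and on TMP195 2. As log2 differences of the mean shares they were 0.08 for all genes, 0.10 for complex I, 0.12 for complex III and 0.12 for complex IV, and from the deposited FPKM 0.025, 0.050, 0.029 and 0.046. In vehicle 1, Uqcr10 held 3328 of the 6654 FPKM summed over complex III. The FPKM of that gene is uncertain, so the complex III figure from FPKM is as well. For complex V the difference was 0.030, and −0.030 from FPKM. Without TMP195 2 it was 0.031 for all genes, 0.053 for complex I and 0.034 for complex IV, and without TMP195 1 it was 0.20 for complex IV.

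**Figure D4:**
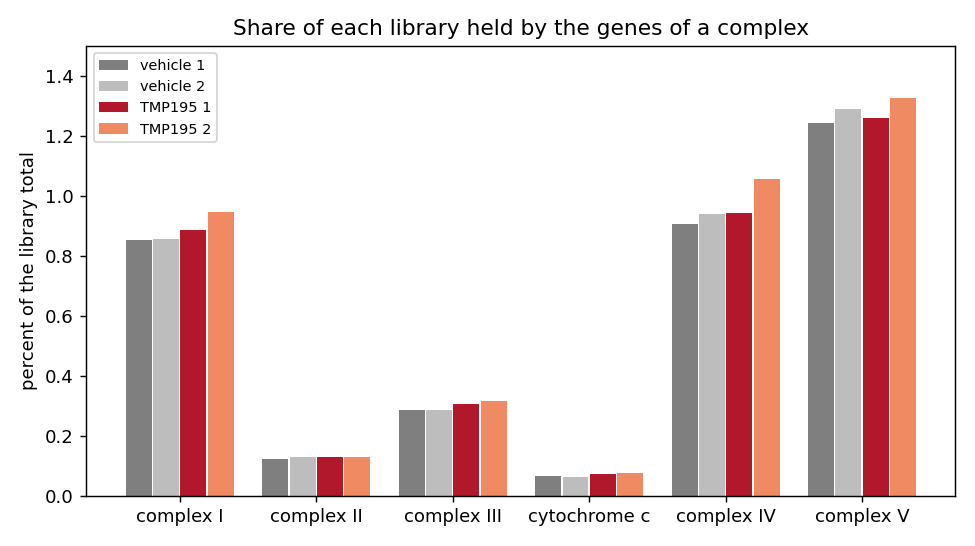
Percent of the library total held by the genes of each complex (y axis, from 0) in each of the 4 libraries, as bars; single libraries carry no error bar. TMP195 2 is the highest bar for every complex, and TMP195 1 is above both vehicle libraries for complex I, III, IV and cytochrome c.

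The TMP195 libraries differed from each other in these genes more than the vehicle libraries did. Of 76 respiratory genes averaging 100 or more and with a deposited FPKM, 60 were higher in TMP195 2 than in TMP195 1, with a median log2 ratio of 0.10, beside −0.01 over 8235 genes at that level. In vehicle 2 against vehicle 1, 48 of 76 were higher, with a median of 0.03. The difference varied with the length implied by value and FPKM: the 38 shorter genes had a median of 0.15 and the 38 longer genes of 0.06. Across the 76 genes the Spearman correlation of this ratio with length was −0.60, a description over genes of the same 2 libraries. Of the risen genes, 5 were among the shorter 38 and 11 among the longer 38. The median fold change of the respiratory genes was log2 0.17 without TMP195 1 and 0.06 without TMP195 2.

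**Figure D5:**
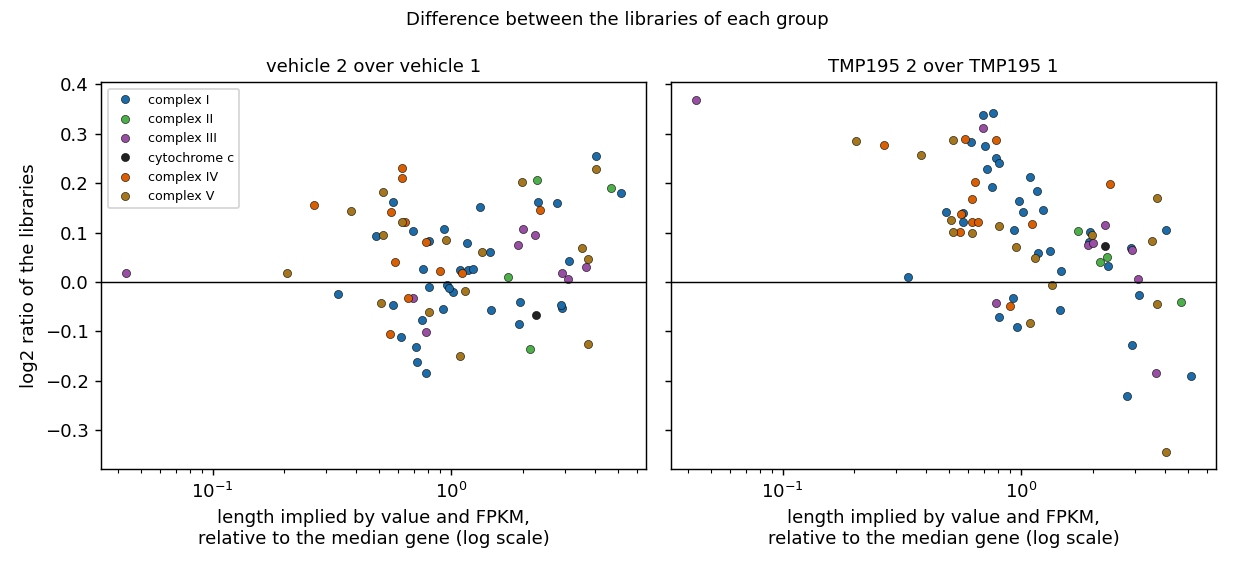
Log2 ratio of the libraries of each group (y axis) against the length implied by value and FPKM relative to the median gene (x axis, log scale), 1 point per respiratory gene. In the TMP195 panel most shorter genes lie above 0 and the points fall toward longer genes, whereas the vehicle points scatter around 0.

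Assembly factors help build the complexes. Of 42 tested, 8 (19.0%) rose, beside 9.93% of all genes, and 1 fell, with a median log2 fold change of 0.20. Among genes averaging 100 or more, 7 of 37 (18.9%) rose, beside 14.6% of all genes at that level. For complex I, Ndufaf3 had 678 and 586 with vehicle and 938 and 824 with TMP195, Ndufaf4 550.0 and 706 with vehicle and 874 and 862 with TMP195 and Timmdc1 290.2 and 322 with vehicle and 432 and 443 with TMP195, and these 3 of 13 rose by 1.39-fold, 1.39-fold and 1.43-fold (adjusted p = 9.73e-04, 0.00154 and 0.00344). Ndufaf5 was next (adjusted p = 0.0791). The 2 tested complex II factors did not pass, Sdhaf2 at log2 0.13 and Sdhaf3 at −0.53. Of 6 complex III factors, 0 passed in the limma fit and 0 with limma-voom, with 1 higher at an unadjusted p under 0.05. Those with the smallest p were at log2 0.40 for Lyrm7, 0.19 for Uqcc2, 0.14 for Uqcc1 and 0.25 for Bcs1l.

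Complex IV factors included the largest rise of the assembly genes. Taco1, which helps translate a core subunit in mitochondria, had 38.9 and 33.7 with vehicle and 90.5 and 80.6 with TMP195 and was 2.32-fold higher (log2 1.22 ± 0.30 SE, adjusted p = 0.00321). Cox17, a copper chaperone, rose 1.28-fold (log2 0.36 ± 0.08 SE, adjusted p = 0.00185) and Lrpprc, which stabilises mitochondrial mRNA, 1.22-fold (log2 0.29 ± 0.08 SE, adjusted p = 0.00778). Cox16 fell, from 424 and 428 to 299 and 342 (log2 −0.41 ± 0.13 SE, adjusted p = 0.0202). The other 12 of 16 did not pass. Over all genes 9.93% rose and 10.3% fell. Among the 5 genes of complex V, the F1 assembly factors Atpaf2 and Fmc1 rose 1.43-fold and 1.25-fold (adjusted p = 0.00435 and 0.0317). Atpif1, the inhibitor of the enzyme, was at 6591 and 7025 with vehicle and 7019.7 and 8119 with TMP195 (log2 0.15, adjusted p = 0.163), and Tmem70 did not pass (adjusted p = 0.395).

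Regulators of respiratory genes moved in both directions: of 16 tested, 3 rose and 2 fell. Over all genes 9.93% rose and 10.3% fell. Among genes averaging 100 or more, 3 of these 15 rose and 2 (13.3%) fell, close to the 14.6% and 13.9% of all genes at that level. Esrra, a nuclear receptor that binds respiratory promoters, had values of 649.5 and 692 in vehicle 1 and 2 and 861 and 1103 in TMP195 1 and 2 and was 1.45-fold higher (log2 0.54 ± 0.11 SE, adjusted p = 3.42e-04). The coactivators of the PGC-1 family split. Ppargc1a had 2614 and 2502 with vehicle and 1974 and 2112 with TMP195 and Ppargc1b 2657 and 2675 with vehicle and 2007 and 2023 with TMP195, lower by 1.25-fold and 1.32-fold (adjusted p = 0.00227 and 1.68e-04), and Pprc1 was 1.23-fold higher (adjusted p = 0.00471). In each of these 4 the groups did not overlap. The fifth was Yy1, named after its value was seen (log2 0.29, adjusted p = 0.0237). Of the genes for NRF1 and GABP, Nrf1 (log2 −0.06, adjusted p = 0.812), Gabpa (log2 0.03, adjusted p = 0.856) and Gabpb1 (log2 −0.26, adjusted p = 0.163) did not pass. They too were named after their values were seen.

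The authors' deposited table gives an unadjusted p-value for 78 of the respiratory genes. It was under 0.05 for 5 of them, all higher with TMP195, where 11.4% of all genes in the authors' deposited table had such a p in either direction. They were Uqcrc1 (p = 0.000399), Ndufv2 (p = 0.0319), Ndufs6 (p = 0.0336), Uqcrb (p = 0.0425) and Cycs (p = 0.0463) in the authors' deposited table. Of these, Ndufs6, an accessory complex I subunit at 1269 and 1248 with vehicle and 1359 and 1368 with TMP195, did not pass in the limma fit (adjusted p = 0.376).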

How the data were processed

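RNA-seq values of 2 vehicle and 2 TMP195 libraries were used, grouped by their titles. Per the submitters' processing notes the authors used Cufflinks; its version, aligner, build and annotation: not given in the sources used here. As the main table the authors deposited a signal per gene: fragment estimates scaled by a factor per library, read from the values, of which 99.3 to 99.5% were whole multiples of a step within 0.1 fragment. The authors also deposited FPKM, recognised from the values, and an unadjusted p-value per gene from a test that is not stated.

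limma 3.58.1 in R 4.3.3 was fitted with trend to log2(value + 1) over 12689 genes averaging 1 or more, with treatment as the only term, 2 residual and 27.4 prior degrees of freedom, and Benjamini-Hochberg adjustment over all genes tested. Its p-values thus rest more on spread pooled over genes than on the spread of the gene itself. The fold changes are on this log2 scale, computed from the deposited signal, and understate the change of low genes. The main table was not raw counts, so the count models planned as alternatives were not run. A value near 100 rests on about 100 fragments. Overlapping genes cannot be told apart, since no source used here says whether counting used strand.

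The genes named are those past the threshold, the 3 with the highest FPKM in each complex, isoform pairs, the nearest miss in each complex, genes listed at 0 and, of each further list, the 4 with the smallest p. Other members are given as examples, and 1 is not reported here. Of the 82 names, 65 are RefSeq symbols and 17 were matched through an older name. The members and lists were chosen with earlier results of these data known.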

Additional observations from a re-analysis of the deposited data

How the results depend on the processing

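With other settings 12 to 21 respiratory genes rose, beside 16. There were 13 with a pseudocount of 0.1 or with scaling by library total, 12 with no filter and 21 with a mean value of 10 or 100 or more. The share of all genes that rose moved as well. It was 9.93% in the main fit and 8.83%, 8.66%, 6.81%, 12.5% and 16.8% in the order of these settings. The samples share replicate numbers, but the deviations of same-numbered samples correlated at −0.063 over 8235 genes, so the number is not taken as a pairing; with the replicate block 16 rose, 15 of them shared (Uqcrfs1 lost, Ndufa5 gained), and limma-voom with library totals, added after seeing the data, gave the same exchange. Leaving out 1 library at a time gave 0 to 28 risen and 0 to 3 fallen respiratory genes, 0 to 1086 risen and 0 to 1082 fallen genes in all, and medians over the respiratory genes of log2 0.0596 to 0.172; the fits at a mean value of 100 or more were added after seeing the data. Cox4i2 is below that filter, so 0 fell there with all 4 libraries; without TMP195 2 the 3 were Atp5e, Atp5j2 and Cox8b, named after their values were seen. Total scaling moved the median of all genes from −0.01 to −0.03 and turned 6 of the 79 genes below 0, Atp5i to −0.019 (−0.0206 with voom), Atp5o to −0.013, Cox5a to −0.018, Ndufa9 to −0.015, Ndufb11 to −0.012 and Ndufb6 to −0.014. Leaving out 1 library could not turn a gene past the test, since the groups of those genes did not overlap. Over such fits 27 of the 79 turned in at least 1, none of them past the test with all 4 libraries. Of these, log2 fold changes ran from −0.136 to 0.149 for Atp5i, from −0.0318 to 0.28 for Cox6b2, from −0.129 to 0.102 for Cox7a2, from −0.0244 to 0.0962 for Cox8a, from −0.231 to 0.0461 for Cox8b, from −0.0068 to 0.332 for Ndufa11, from −0.129 to 0.0236 for Ndufa4, from −0.92 to 1.27 for Ndufa4l2, from −0.133 to 0.0576 for Sdha, from −0.0116 to 0.196 for Sdhd, from −0.0858 to 0.282 for Uqcr10, from −0.0559 to 0.256 for Uqcr11, from −0.0529 to 0.131 for Uqcrc2 and from −0.0171 to 0.0314 for Cox5a. The summed shares ran from 0.053 to 0.148 for complex I, from −0.0053 to 0.0942 for complex II, from 0.0902 to 0.141 for complex III, from 0.0335 to 0.196 for complex IV, from −0.0075 to 0.0659 for complex V, from 0.0312 to 0.13 for all; from FPKM they were 0.0503 (I), 0.029 (III), 0.0459 (IV), −0.0296 (V) and 0.0253 (all), as log2 differences. The cause was not tested. With 1 library left out the log2 ratio of Ndufa4l2 to Ndufa4, near the floor, ran from −1.33 to 1.78; the other isoform ratios and c ring shares kept their direction. The planned count models and voom with TMM factors were not run, because whole fragments could not be recovered. With 2 libraries a group, genes under a value of about 100 carry wide intervals.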

Other observations

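Genes that make ubiquinone or bring electrons and substrates to the chain were counted as well. Of 19 tested, 6 rose and 13 did not pass, with a median log2 fold change of 0.30, where 9.93% of all genes rose. At an average of 100 or more, 6 of 18 (33.3%) rose, beside 14.6% of all genes at that level. The electron transfer flavoprotein, made of Etfa and Etfb, passes electrons from fatty acid oxidation through Etfdh to ubiquinone. Etfb had values of 1961 and 1973 in vehicle 1 and 2 and 2834 and 2835 in TMP195 1 and 2, and was 1.44-fold higher (log2 0.53 ± 0.07 SE, adjusted p = 3.60e-06). Etfa had 1507 and 1549 with vehicle and 2059 and 1955 with TMP195, 1.31-fold higher (log2 0.39 ± 0.08 SE, adjusted p = 4.74e-04), and Etfdh, which reduces ubiquinone, had 1485 and 1657 with vehicle and 2256 and 2236 with TMP195, 1.43-fold higher (log2 0.52 ± 0.08 SE, adjusted p = 1.50e-05). Slc25a4, the heart isoform of the carrier that exchanges ADP for ATP, had 17038 and 17308 with vehicle and 21684 and 21876 with TMP195 and was 1.27-fold higher (log2 0.34 ± 0.07 SE, adjusted p = 2.94e-04). In these 4 genes both TMP195 libraries lay above both vehicle libraries, and the TMP195 libraries were close to each other.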
